A study of Mus musculus with 21 samples.

Results

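Brain endothelial cells hold their identity through a small set of transcription factors, and 9 of them are described here: the ETS proteins Erg, Fli1, Ets1 and Ets2, the Tal1, Lmo2 and Gata2 proteins of the blood and endothelial lineage, Mef2c, and Tcf15. The genes were taken by name, and all 9 were found among the 24206 gene names of the expression table. RNA came from endothelial cells of adult C57BL/6 brains (mice 12 to 20 weeks old), sorted as live cells with CD31 on the surface and without CD45 or PDGFRb. Values are RPKM, reads per kilobase of gene length and library size, as the authors deposited them. The first experiment has 16 libraries taken after 1 h of middle cerebral artery occlusion and 1 d of reperfusion, in 4 groups of 4. Cko-ST (stroke hemisphere) and Cko-NS (non-stroke hemisphere) carry Gpr124 flox/- with ROSA-CreER+. WT-ST (stroke hemisphere) and WT-NS (non-stroke hemisphere) carry Gpr124 flox/+ with the same ROSA-CreER+. Both genotypes thus carry the Cre recombinase, which the ROSA locus drives in many cell types and not in endothelium alone, and the WT groups keep a single intact Gpr124 allele once the floxed one is recombined. The second experiment, without stroke, has 3 Bcat libraries (Ctnnb1 lox(ex3)/+; Cdh5-CreER+) and 2 WT libraries (Ctnnb1 +/+; Cdh5-CreER+), in which an endothelial promoter drives the Cre. Deletion of exon 3 of Ctnnb1 is a standard way to stabilise beta-catenin. Nothing in the labels says whether libraries came from separate mice, so a p-value here reflects how these samples scatter, and part of that scatter may be technical.

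ETS factors bind short DNA sites with a GGAA core, which occur in the enhancers and promoters of nearly all genes that are typical of endothelium. Tal1, a basic helix-loop-helix protein, binds DNA with an E-protein partner, Lmo2 is an adaptor that does not itself bind DNA and bridges Tal1 to a GATA factor through Ldb1, and in endothelium that GATA factor is often Gata2. Mef2c is a MADS-box factor that takes part in endothelial responses to flow and growth factors, and Tcf15 is a basic helix-loop-helix factor that with Meox2 drives fatty acid uptake in heart capillaries of mice.

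The members lie at the following places in the GRCm38 (mm10) annotation of GENCODE, where all are protein-coding. Fli1 (chromosome 9, 32422204 to 32542861, minus strand) and Ets1 (chromosome 9, 32636221 to 32757820, plus strand) are neighbours that point away from each other, 93.4 kb apart with 0 protein-coding genes between them. Erg (chromosome 16, 95359169 to 95586593, minus strand) and Ets2 (chromosome 16, 95702075 to 95721051, plus strand) form a second such pair, 115 kb apart and also with 0 protein-coding genes between them. Tal1 lies on chromosome 4 (115056426 to 115071755, plus strand), Lmo2 on chromosome 2 (103957986 to 103981878, plus strand) and Gata2 on chromosome 6 (88193891 to 88207032, plus strand). Mef2c lies on chromosome 13 (83504034 to 83667080, plus strand) and Tcf15 on chromosome 2 (152143561 to 152149097, plus strand).

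The estimated depth of the stroke libraries ran from 4.72 to 19.6 M reads, with group means of 14.9 M in Cko-ST, 9.09 M in Cko-NS, 10.9 M in WT-ST and 8.4 M in WT-NS. No absolute depth is given for the other 5 libraries. Gpr124, the targeted gene, averaged 1.37 ± 0.585 RPKM in Cko-ST, 2.76 ± 1.65 in Cko-NS, 4.99 ± 2.52 in WT-ST and 4.49 ± 2.25 in WT-NS (SD, n = 4 each), and its Cko-NS and WT-NS values overlapped. The libraries count tags near the 3' end, so this checks the genotype only in part. Sex-linked genes went against the label in 2 libraries: Cko-NS 4 is labelled female and had Y-linked RNA, and Cko-ST 3 is labelled male and had Xist and almost no Y-linked RNA. By RNA, same-numbered Cko libraries agreed in sex. Y-linked genes summed to 189 RPKM in Cko-NS 4 and 249 in Cko-ST 4, and the other Cko libraries had Xist. All WT-ST and WT-NS libraries had Xist and little Y-linked RNA, so sex is not balanced between the genotypes. Its part was not tested. Results of the Cko groups are also given without Cko-NS 4 and Cko-ST 3, which leaves Y-linked RNA in Cko-ST 4 alone. Summed RPKM of 10 endothelial markers was 1569 to 1851 in Cko-ST, 1581 to 1762 in Cko-NS, 1466 to 1875 in WT-ST and 1142 to 1386 in WT-NS, so WT-NS lay below the other groups. Tal1, Lmo2, Gata2 and Fli1 are also expressed by blood cells. Of the markers of such cells, Gata1 was at 0 in 19 of 21 libraries, Klf1 in 19, Spi1 in 19, Cd3e in 20 and Gp9 in 21. Others were detected more often: Pf4 was at 0 in 14 libraries, Ppbp in 8, Ptprc in 7, Itga2b in 5, and Laptm5 and Lcp1 in 0. The platelet gene Itga2b averaged 1.16 RPKM in Cko-ST, 0.608 in Cko-NS, 1.098 in WT-ST and 0.341 in WT-NS, and Pf4 averaged 2.20, 0.145, 0 and 0.175 RPKM in the same groups. The leukocyte gene Ptprc averaged 0.388 RPKM in Cko-ST, 2.48 in Cko-NS, 0.214 in WT-ST and 0.0279 in WT-NS. The 9 leukocyte markers summed to at most 13.8 RPKM in the stroke libraries once Ly6c2, which endothelium also expresses, was left aside. Haemoglobin dominated the sum of 10 red-cell and platelet markers, which was 810 to 9478 RPKM in Cko-ST, 2930 to 20237 in Cko-NS, 1794 to 5882 in WT-ST and 4129 to 7228 in WT-NS. These are bulk RNA samples, in which fewer cells of a type and less RNA per cell cannot be told apart.

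All 9 members passed the filter of a mean of at least 1 RPKM in both experiments, so none was lost to low values. By mean level per gene length over the 16 stroke libraries the order was Fli1 (359 RPKM), Lmo2 (206), Ets2 (129.7), Ets1 (89.8), Mef2c (57.0), Gata2 (54.0), Erg (33.7), Tal1 (7.09) and Tcf15 (5.63). Neighbours in this order overlapped in their ranges over libraries, with the exception of Erg and Tal1, whose lowest and highest libraries were 23.0 and 11.2 RPKM. Because tags come from the 3' end while RPKM divides by length, the level of long genes is understated in this order. The members also differed in how much they moved: the highest library exceeded the lowest by 1.70-fold for Fli1, 1.75-fold for Ets2 and Mef2c, 2.24-fold for Erg, 2.58-fold for Lmo2, 2.68-fold for Ets1, 3.11-fold for Tal1, 6.96-fold for Gata2 and 54.9-fold for Tcf15. Fli1, an early regulator of endothelial and megakaryocyte genes, was thus both the highest and the steadiest, and Tcf15 both the lowest and the most variable.

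**Figure D1:**
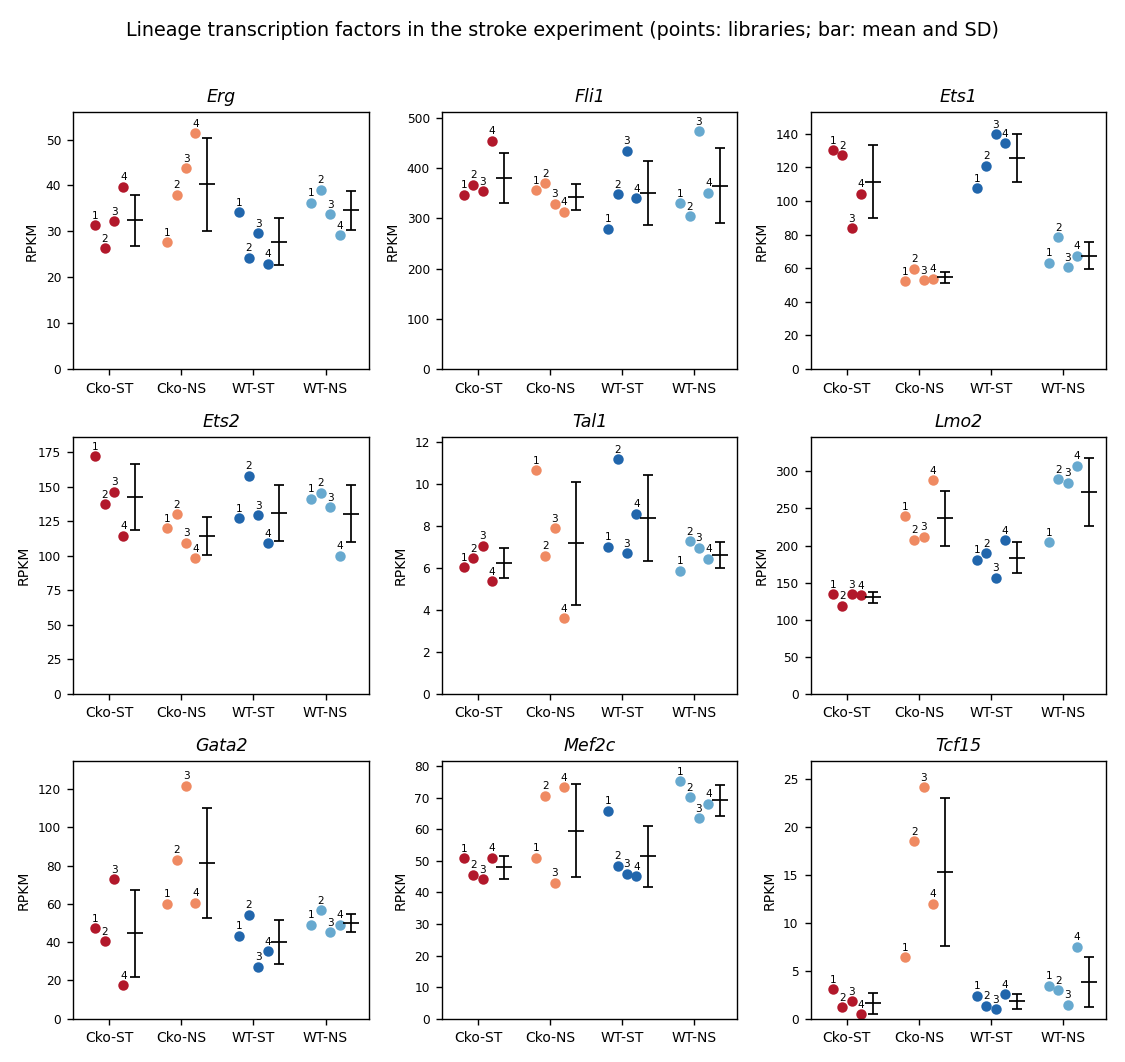
RPKM of the 9 transcription factors in each library of the stroke experiment (points, with replicate number), with the mean and SD of each group of 4 as bars. Ets1 is higher in both stroke groups, Lmo2 is lowest in Cko-ST at 119 to 135 RPKM, and Tcf15 lies at 12.0 to 24.1 RPKM in 3 Cko-NS libraries and at 7.51 RPKM or less in all others.

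Stroke was compared within each genotype, which asks how the lineage factors of the endothelium stand 1 d after reopened flow. Ets1 was higher and Lmo2 lower in the stroke hemisphere of both genotypes, Tcf15 was lower in the stroke hemisphere of Cko mice, and Erg, Fli1, Ets2, Tal1 and Mef2c passed the test in neither. In WT-ST against WT-NS 2 of 9 members passed an adjusted p of 0.05, where 13.3% of the 9838 genes tested did, and in Cko-ST against Cko-NS 3 of 9 did, where 15.2% of all genes did. The median log2 fold change of the 9 members was -0.32 in WT-ST against WT-NS, beside 0.01 over all genes, and -0.28 in Cko-ST against Cko-NS, beside -0.14 over all genes. Values and tests follow by role.

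Among the ETS factors, Ets1, which is induced in endothelium that migrates or sprouts, was the one that passed the test. It had 130.0, 127, 83.9 and 104 RPKM in Cko-ST libraries 1 to 4, against 52.1, 59.6, 52.9 and 53.8 RPKM in Cko-NS. In WT-ST it had 108, 121, 139.6 and 134 RPKM, against 63.3, 78.5, 60.6 and 67.5 RPKM in WT-NS. Every stroke library of a genotype lay above every non-stroke library of that genotype, which 7.4% of all genes did between Cko-ST and Cko-NS (18.8% in either direction) and 11.9% between WT-ST and WT-NS (20.6% in either direction). The log2 fold change, on the scale of log2(RPKM + 1), was 1.00 ± 0.16 in Cko mice (SE, adjusted p = 0.000422, limma with Benjamini-Hochberg adjustment) and 0.89 ± 0.16 in WT mice (adjusted p = 0.00122). The rise was past the threshold in each of 17 alternatives per genotype, with a log2 fold change of 1.12 in Cko mice without Cko-NS 4 and Cko-ST 3. The difference between the rises was within its error (interaction 0.11 ± 0.23, 95% interval -0.37 to 0.59, adjusted p = 0.946).

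Fli1, the neighbour of Ets1 in the genome, did not pass the test. Its libraries had 347, 366, 354 and 454 RPKM in Cko-ST, 355, 369.9, 329 and 313 in Cko-NS, 279, 348, 435 and 339.9 in WT-ST, and 330.0, 304, 473 and 351 in WT-NS. The groups overlapped throughout. Its log2 fold change was 0.15 (95% interval -0.19 to 0.49) in Cko-ST against Cko-NS and -0.05 (-0.39 to 0.28) in WT-ST against WT-NS. The lower bounds of Ets1 were 0.66 and 0.55 in the same comparisons.

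Erg, the ETS factor most tied to vessel stability and junction genes, had 31.3, 26.3, 32.2 and 39.7 RPKM in Cko-ST, against 27.6, 37.9, 43.8 and 51.4 RPKM in Cko-NS. In WT-ST it had 34.2, 24.3, 29.5 and 23.0 RPKM, against 36.2, 39.1, 33.8 and 29.1 RPKM in WT-NS. Means were lower in both stroke groups but the groups overlapped, with log2 fold changes of -0.28 ± 0.21 (adjusted p = 0.387) and -0.32 ± 0.21 (adjusted p = 0.353). Ets2, a Ras-responsive ETS factor and the neighbour of Erg, averaged 143 ± 23.8 RPKM in Cko-ST, 115 ± 13.8 in Cko-NS, 131 ± 20.1 in WT-ST and 131 ± 20.8 in WT-NS (SD, n = 4 each). Its log2 fold change was 0.31 ± 0.17 in Cko mice (adjusted p = 0.242) and 0.01 ± 0.17 in WT mice (adjusted p = 0.984), where the sign turned with median-of-ratios scaling (-0.02) and quantile-normalized values (-0.18).

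Lmo2, the adaptor of the Tal1 complex, went the other way from Ets1. It had 134, 119, 135 and 133 RPKM in Cko-ST, against 239, 208, 212 and 288 RPKM in Cko-NS. In WT-ST it had 181, 189.8, 156 and 207 RPKM, against 205, 289.7, 285 and 308 RPKM in WT-NS. All Cko-ST libraries lay below all Cko-NS libraries, as 11.4% of all genes did, while WT-ST 4 (207) lay just above WT-NS 1 (205). It fell by 0.85 on the log2 scale in Cko mice (SE 0.16, adjusted p = 0.00114; -0.77 without Cko-NS 4 and Cko-ST 3) and by 0.55 in WT mice (SE 0.16, adjusted p = 0.0239). The call in Cko mice held in all 17 alternatives. The call in WT mice was lost without WT-NS 2 (adjusted p = 0.0653), WT-NS 3 (0.0595), WT-NS 4 (0.0745), WT-ST 1 (0.0537) or WT-ST 3 (0.0789), and without a mean-variance trend (0.0709). The difference between the falls was not past the threshold (interaction -0.30 ± 0.22, adjusted p = 0.812).

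Tal1, the helix-loop-helix protein of the complex, was expressed at 5.34 to 7.04 RPKM in Cko-ST, 3.59 to 10.6 in Cko-NS, 6.68 to 11.2 in WT-ST and 5.85 to 7.26 in WT-NS. The groups overlapped, and the log2 fold change was -0.11 ± 0.27 in Cko mice (adjusted p = 0.828) and 0.28 ± 0.27 in WT mice (adjusted p = 0.567). In Cko mice the sign turned with median-of-ratios scaling (0.01) and quantile-normalized values (0.07).

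Gata2, the GATA factor of endothelium and blood progenitors, had 47.2, 40.5, 73.0 and 17.5 RPKM in Cko-ST, against 60.2, 83.1, 122 and 60.7 RPKM in Cko-NS. In WT-ST it had 43.4, 54.4, 27.2 and 35.4 RPKM, against 49.0, 56.6, 45.3 and 49.0 RPKM in WT-NS. Each Cko-ST library lay below the Cko-NS library of the same number, although the groups overlapped through Cko-ST 3. In the fit without pairing the log2 fold change in Cko mice was -0.96 ± 0.33 with an adjusted p of 0.0593, which is not past the threshold. With the replicate number as a block in both genotypes, the same difference had an adjusted p of 0.011. Whether the numbers pair samples is not settled, so this fit is 1 alternative among the others. It also passed without Cko-ST 3 (-1.25, adjusted p = 0.0134), without both Cko-NS 4 and Cko-ST 3 (-1.36, adjusted p = 0.0125) and with a filter of at least 5 RPKM (adjusted p = 0.0449). In 13 of 17 alternatives it did not pass. Among these were the fits without Cko-ST 4 (-0.58, adjusted p = 0.184), without Cko-NS 3 (-0.75, 0.17) and with no filter (0.132). Over all alternatives the adjusted p ran from 0.011 to 0.184. In WT mice it was -0.35 ± 0.33 (adjusted p = 0.55), and the difference between the genotypes was -0.61 ± 0.47 (adjusted p = 0.825).

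**Figure D2:**
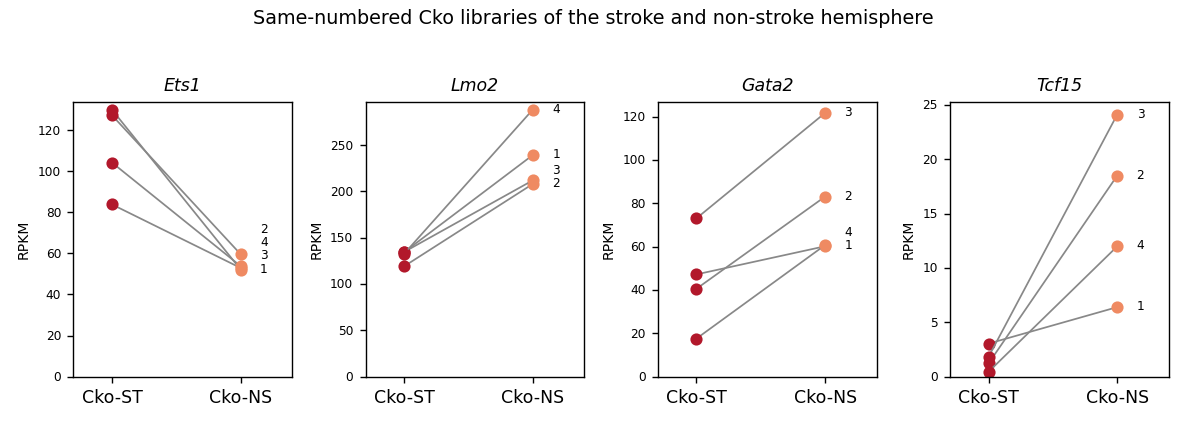
RPKM of Ets1, Lmo2, Gata2 and Tcf15 in the Cko libraries, with a line joining the Cko-ST and Cko-NS libraries of the same replicate number (printed at the right). Ets1 is higher and Lmo2, Gata2 and Tcf15 are lower in Cko-ST in all 4 same-numbered pairs.

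Promoter sequence is shown for Gata2, whose call in Cko mice changed with the filter, the block and the libraries kept. Beside it stands Tal1, whose level did not pass the test. The GATA factor of this complex binds GATA sites. RefSeq promoters of build GRCm38.p6 were found for 5 of the 9 members (Erg, Ets2, Tal1, Gata2 and Mef2c, with 11 start sites). Each line gives the 250 bases before a start site on the plus strand, 5′ to 3′, in lower case with GATA or its reverse complement TATC in capitals, and where a GATA and a TATC overlap the capitals cover both.
Gata2, chr6:88193641-88193890: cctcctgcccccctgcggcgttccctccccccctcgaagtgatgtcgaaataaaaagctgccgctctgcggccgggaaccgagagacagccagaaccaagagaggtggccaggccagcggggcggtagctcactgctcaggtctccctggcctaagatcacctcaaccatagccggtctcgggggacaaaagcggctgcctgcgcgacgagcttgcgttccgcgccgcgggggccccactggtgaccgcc
Gata2, chr6:88198414-88198663: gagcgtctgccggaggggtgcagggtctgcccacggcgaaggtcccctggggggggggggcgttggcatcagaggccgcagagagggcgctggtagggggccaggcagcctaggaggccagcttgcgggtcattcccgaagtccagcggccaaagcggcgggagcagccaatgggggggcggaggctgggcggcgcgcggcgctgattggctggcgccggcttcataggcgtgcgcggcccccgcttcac
Tal1, chr4:115056176-115056425: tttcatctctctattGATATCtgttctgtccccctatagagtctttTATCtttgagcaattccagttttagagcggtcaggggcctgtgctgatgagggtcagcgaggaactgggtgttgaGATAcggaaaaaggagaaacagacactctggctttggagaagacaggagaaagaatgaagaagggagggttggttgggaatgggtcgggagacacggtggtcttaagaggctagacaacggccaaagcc
Tal1, chr4:115057561-115057810: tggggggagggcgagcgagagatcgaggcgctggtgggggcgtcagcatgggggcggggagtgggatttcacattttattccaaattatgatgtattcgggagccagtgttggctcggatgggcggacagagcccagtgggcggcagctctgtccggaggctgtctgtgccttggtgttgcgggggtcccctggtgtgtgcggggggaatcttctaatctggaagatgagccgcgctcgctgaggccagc
The letters GATA occurred on either strand 4 times in the first Tal1 stretch, counting overlapping matches, and 0 times in the second Tal1 stretch and in both Gata2 stretches. The Tal1 stretches were 48.8% and 62.8% G or C and the Gata2 stretches 67.2% and 74%, beside a median of 52.4% over all promoters. Over the 11 start sites, 7 held GATA in their 250 bases, and 53.6% of 32851 promoters of that length did. The letters CCGGAA, a strong form of the ETS site, were in 0 of the 11 and in 12% of all, and the E-box CAGCTG was in 0 of the 11 and in 13% of all. A match is a description of these letters and not a bound site, and no match says only that these letters are not in the window.

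Mef2c had 50.9, 45.6, 44.2 and 51.1 RPKM in Cko-ST, against 51.1, 70.6, 43.1 and 73.3 RPKM in Cko-NS. In WT-ST it had 66.0, 48.5, 46.0 and 45.2 RPKM, against 75.3, 70.2, 63.5 and 68.2 RPKM in WT-NS. In WT mice 3 of 4 stroke libraries lay below every non-stroke library and WT-ST 1 lay among them. The log2 fold change was -0.44 ± 0.18 in WT mice (adjusted p = 0.127) and -0.28 ± 0.18 in Cko mice (adjusted p = 0.337).

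Tcf15 showed the widest range of all members. It had 3.04, 1.21, 1.81 and 0.439 RPKM in Cko-ST, against 6.40, 18.5, 24.1 and 12.0 RPKM in Cko-NS. In WT-ST it had 2.39, 1.33, 0.984 and 2.54 RPKM, against 3.42, 2.94, 1.44 and 7.51 RPKM in WT-NS. All Cko-ST libraries lay below all Cko-NS libraries, while the WT groups overlapped. These levels rest on an estimated 39, 13, 25 and 8 reads in Cko-ST libraries 1 to 4, against 43, 175, 260 and 83 reads in Cko-NS, so counting error is large at the low end. In Cko mice Tcf15 fell by 2.59 on the log2(RPKM + 1) scale (SE 0.43, adjusted p = 0.000532), a fall that held in all 17 alternatives and was -2.72 without Cko-NS 4 and Cko-ST 3. In WT mice the difference was -0.68 ± 0.43 (adjusted p = 0.34). The difference between the genotypes in this effect was -1.91 ± 0.61, with an unadjusted p of 0.00576 and an adjusted p of 0.681, so the interaction did not pass the test.

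Markers of other cell types were summed beside these differences. Of all genes tested 6.44% rose and 8.71% fell in Cko mice, and 8.46% rose and 4.84% fell in WT mice. The sum of 10 neuron markers was 5.45 to 9.16 RPKM in Cko-ST, against 12.0 to 61.3 in Cko-NS, and 10.1 to 21.3 in WT-ST, against 19.5 to 26.9 in WT-NS; 3 of the 10 passed the filter, and of those 1 fell in Cko mice (Snap25, adjusted p = 0.0179, lost without Cko-NS 4 or Cko-ST 4) and 0 in WT mice. The sum of 8 astrocyte markers was 2.56 to 4.95 RPKM in Cko-ST, against 6.67 to 24.2 in Cko-NS, and 3.11 to 9.57 in WT-ST, against 6.19 to 17.9 in WT-NS, and 0 of the 2 tested passed. The sum of 8 oligodendrocyte markers was 21.9 to 285 RPKM in Cko-ST, against 45.5 to 539 in Cko-NS, and 30.4 to 393 in WT-ST, against 191 to 1039 in WT-NS, with 0 of 8 past the test. The neuron, astrocyte, and microglia and macrophage sums did not overlap between Cko-ST and Cko-NS, and overlapped between WT-ST and WT-NS. The sum of 10 microglia and macrophage markers was 5.10 to 12.5 RPKM in Cko-ST, against 13.1 to 22.9 in Cko-NS, and 2.29 to 17.1 in WT-ST, against 1.78 to 84.4 in WT-NS. Of the 5 tested, 0 passed in Cko mice and 1 fell in WT mice, P2ry12, a receptor of microglia (log2 fold change -1.56, adjusted p = 0.0452), a call lost without any of 7 of the 8 libraries (adjusted p up to 0.148), with WT-NS 3 as the exception. The sum of 10 mural cell markers was 13.0 to 106 RPKM in Cko-ST, against 17.4 to 32.3 in Cko-NS, and 10.3 to 47.2 in WT-ST, against 47.5 to 68.8 in WT-NS, which did not overlap. Most of it was Rgs5, a pericyte gene (log2 fold change -1.73 ± 0.60 in WT mice, adjusted p = 0.0666), and 0 of the 3 tested passed in either genotype. Of the leukocyte markers 2 were tested, and Ly6c2 fell in Cko mice (log2 fold change -0.64 ± 0.16, adjusted p = 0.0126, and 0.0528 without Cko-ST 1) and did not pass in WT mice (adjusted p = 0.888). Fibroblast markers had 0 of 6 past the filter. The red-cell and platelet sums given above overlapped between hemispheres in both genotypes, with 0 of 4 tested markers past the test. By number, however, each stroke library had a lower sum than the non-stroke library of its genotype. Cko-ST 1 to 4 had 1106, 810, 9478 and 3405 RPKM, against 6554, 2930, 20237 and 7774 RPKM in Cko-NS. The part of these other cell types in the falls of Lmo2 and Tcf15 and in the lower Gata2 of Cko-ST was not tested.

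**Figure D3:**
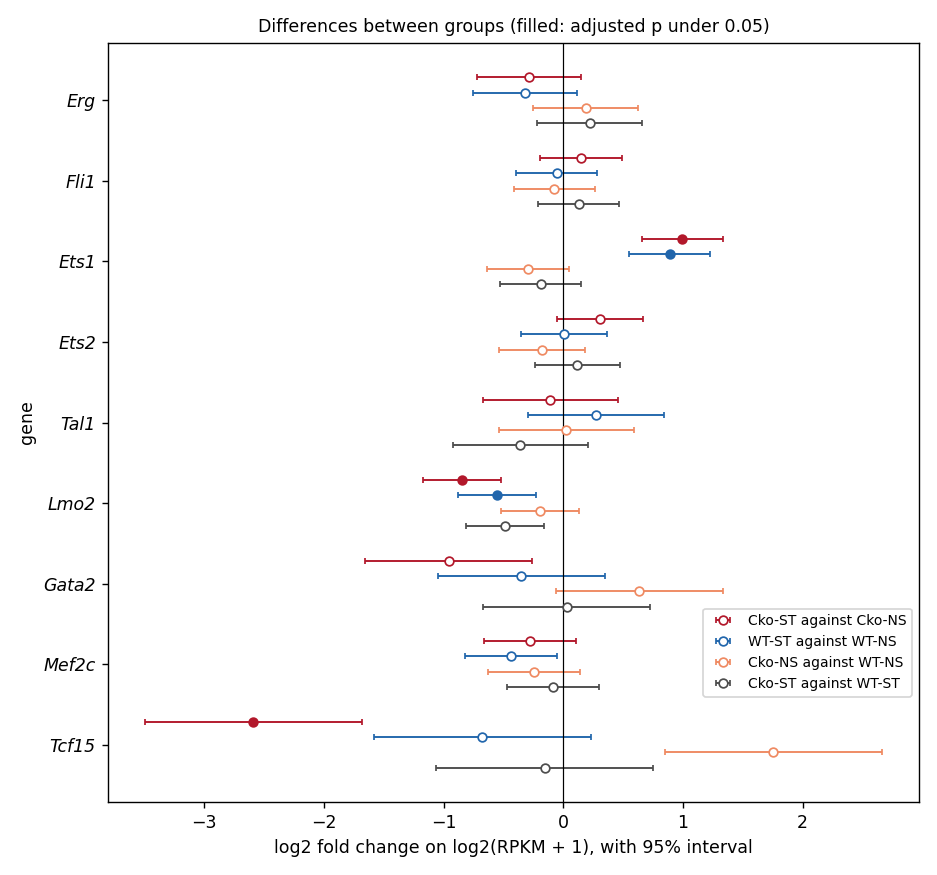
Log2 fold changes of the 9 members on log2(RPKM + 1) with 95% intervals, for both stroke comparisons and both genotype comparisons, filled where the adjusted p is under 0.05. Ets1 and Lmo2 are filled in both stroke comparisons and Tcf15 in Cko-ST against Cko-NS, and no genotype comparison is filled.

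Genotype was compared within each hemisphere, which asks whether loss of Gpr124, a receptor that passes Wnt7 signals into brain endothelium, goes with other levels of the lineage factors. No member passed the test. In Cko-NS against WT-NS 0 of 9 members and 0.315% of all genes passed (0.224% higher and 0.0915% lower). In Cko-ST against WT-ST 0 of 9 members and 0% of all genes did. There 476 of the 9838 genes tested had an unadjusted p under 0.05 by limma, the one tool used. When no gene differs, a share of about 0.05 of the genes tested falls under that threshold by chance. Between the non-stroke hemispheres Tcf15 came nearest, at 15.3 ± 7.71 RPKM in Cko-NS and 3.83 ± 2.59 RPKM in WT-NS (SD, n = 4 each; log2 fold change 1.76 ± 0.43, unadjusted p = 0.000726, adjusted p = 0.0752). Cko-NS 1 (6.40) lay below WT-NS 4 (7.51), and the other 3 Cko-NS libraries lay above all of WT-NS. This comparison and the stroke comparison of Cko mice share the Cko-NS libraries. The adjusted p of Tcf15 ran from 0.0555 to 0.211 over 17 alternatives.

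Between the same hemispheres Gata2 and Ets1 had groups that did not overlap, as 8.7% of all genes did (6.66% higher and 2.04% lower). Gata2 averaged 81.4 ± 28.9 RPKM in Cko-NS and 49.96 ± 4.74 RPKM in WT-NS, with a log2 fold change of 0.64 ± 0.33 (adjusted p = 0.403). Ets1 averaged 54.6 ± 3.38 RPKM in Cko-NS and 67.5 ± 7.87 RPKM in WT-NS, a log2 fold change of -0.30 ± 0.16 (adjusted p = 0.423). Between the stroke hemispheres Lmo2 was the member whose groups did not overlap, as 3.32% of all genes did (1.46% higher and 1.86% lower), with 130.2 ± 7.44 RPKM in Cko-ST and 184 ± 21.2 RPKM in WT-ST. Its log2 fold change was -0.49 ± 0.16, with an unadjusted p of 0.00569 and an adjusted p of 0.836. Erg, Fli1, Ets2, Tal1 and Mef2c had log2 fold changes between -0.25 and 0.19 in the non-stroke hemisphere and between -0.36 and 0.22 in the stroke hemisphere, each with a 95% interval that holds 0. The same held for Lmo2 in the non-stroke hemisphere (-0.19) and for Ets1 (-0.19), Gata2 (0.03) and Tcf15 (-0.16) in the stroke hemisphere. In the interaction of genotype and stroke 0 of 9 members and 0% of all genes passed, and 691 genes had an unadjusted p under 0.05.

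The other ETS genes gave a mixed picture. Of 14 ETS relatives 10 were tested; 1 rose and 0 fell in Cko-ST against Cko-NS, and 2 rose and 0 fell in WT-ST against WT-NS, with median log2 fold changes of 0.19 and 0.08, beside -0.14 and 0.01 over all genes. Over all genes 6.44% rose and 8.71% fell in Cko mice, and 8.46% rose and 4.84% fell in WT mice, so 1 of 10 is near the share of all genes. Elk3, a ternary complex factor of endothelium, averaged 117 ± 19.9 RPKM in Cko-ST and 78.9 ± 17.4 in Cko-NS (adjusted p = 0.0333), and 109 ± 10.9 RPKM in WT-ST and 64.9 ± 4.78 in WT-NS (adjusted p = 0.00894). The call in WT mice held in all 17 alternatives, and that in Cko mice in 10 of 17, being lost without Cko-NS 2, Cko-NS 3, Cko-ST 1, Cko-ST 2 or Cko-ST 4 (adjusted p up to 0.112). Etv6, an ETS repressor, averaged 9.28 ± 1.42 RPKM in WT-ST and 5.04 ± 1.94 in WT-NS (adjusted p = 0.0469), a call lost without any of 7 of the 8 libraries, with WT-NS 2 as the exception.

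The Tal1, Lmo2 and Gata2 partners (8 of 12 tested) had 0 that rose and 1 that fell in Cko-ST against Cko-NS, and 0 and 0 in WT-ST against WT-NS. The shares of all genes were 6.44% that rose and 8.71% that fell in Cko mice, and 8.46% and 4.84% in WT mice. Tcf3, an E-protein that pairs with Tal1, averaged 15.0 ± 6.84 RPKM in Cko-ST and 30.7 ± 8.85 in Cko-NS (log2 fold change -1.08 ± 0.35, adjusted p = 0.0428), a call that held in 5 of 17 alternatives and was lost without Cko-NS 2, Cko-NS 3, Cko-NS 4, Cko-ST 1 or Cko-ST 4 (adjusted p up to 0.129). Of the MEF2 relatives and the Tcf15 partner list (4 of 8 tested) 2 rose in Cko-ST against Cko-NS and 1 rose in WT-ST against WT-NS, and 0 fell in either. They stand beside the same shares of all genes, and 4 tested genes are too few to set the list apart from them. Mef2a, a paralog of Mef2c, averaged 45.3 ± 7.43 RPKM in Cko-ST and 23.2 ± 1.52 in Cko-NS (log2 fold change 0.93 ± 0.20, adjusted p = 0.00437), and the call held in all 17 alternatives. Meox1, a homeobox gene related to the Tcf15 partner Meox2, averaged 11.3 ± 6.22 RPKM in Cko-ST and 3.74 ± 2.71 in Cko-NS (adjusted p = 0.0293), and 7.67 ± 1.34 RPKM in WT-ST and 2.14 ± 1.12 in WT-NS (adjusted p = 0.023). Its calls were each lost without any of 4 libraries, Cko-NS 3, Cko-NS 4, Cko-ST 2 or Cko-ST 4 in Cko mice and WT-NS 1, WT-NS 3, WT-NS 4 or WT-ST 3 in WT mice, with adjusted p up to 0.101 and 0.0649.

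Other endothelial transcription factors moved in both directions. Of the 19 tested (of 21 listed), 3 rose and 4 fell in Cko-ST against Cko-NS, where 6.44% of all genes rose and 8.71% fell, and 3 rose and 6 fell in WT-ST against WT-NS, where 8.46% rose and 4.84% fell. Their median log2 fold change was -0.27 in Cko mice and -0.23 in WT mice, beside -0.14 and 0.01 over all genes. Sox17, an arterial SOX factor, averaged 21.0 ± 4.62 RPKM in Cko-ST and 52.8 ± 8.23 in Cko-NS (log2 fold change -1.30 ± 0.20, adjusted p = 0.000334), and 31.3 ± 8.27 RPKM in WT-ST and 61.5 ± 4.83 in WT-NS (-0.99 ± 0.20, adjusted p = 0.00327). Foxq1, a forkhead factor, fell in both genotypes, with log2 fold changes of -1.01 ± 0.17 in Cko mice (adjusted p = 0.000689) and -0.72 ± 0.17 in WT mice (adjusted p = 0.00955). Lef1, a nuclear effector of Wnt signalling, fell in both as well, with log2 fold changes of -0.78 ± 0.16 in Cko mice (adjusted p = 0.00252) and -0.73 ± 0.16 in WT mice (adjusted p = 0.00429). Bcl6b, a repressor found in endothelium, rose, with 64.0 ± 10.3 RPKM in Cko-ST and 27.0 ± 5.08 in Cko-NS (1.22 ± 0.20, adjusted p = 0.000513), and 52.6 ± 10.8 RPKM in WT-ST and 21.6 ± 3.83 in WT-NS (1.24 ± 0.20, adjusted p = 0.000491). These calls held in all 17 alternatives each. Nr2f2, a nuclear receptor of venous identity, also rose, with a log2 fold change of 0.94 ± 0.21 in WT mice (adjusted p = 0.00628, held in all 17 alternatives) and of 0.74 ± 0.21 in Cko mice (adjusted p = 0.0256), where the call was lost without Cko-NS 2, Cko-NS 3, Cko-ST 2 or Cko-ST 4. Sox7 rose in both genotypes, with calls lost in 10 alternatives in Cko mice and 9 in WT mice (adjusted p up to 0.136 and 0.121). Both Sox7 and Nr2f2 lost their call in Cko mice without Cko-NS 3 or without Cko-ST 2, and without Cko-NS 3 the number that rose there was 1. Epas1 fell in both, a call that held in all 17 alternatives in Cko mice and in 10 of 17 in WT mice (adjusted p up to 0.113). Hey1 and Nfatc1 passed in WT mice alone. Hey1 had -1.58 ± 0.37 there (adjusted p = 0.00794, held in all 17 alternatives) and -1.08 ± 0.37 in Cko mice (adjusted p = 0.0583). Nfatc1 had -0.846 ± 0.25 in WT mice (adjusted p = 0.0325, held in 12 of 17) and -0.435 ± 0.25 in Cko mice (adjusted p = 0.264).

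**Figure D4:**
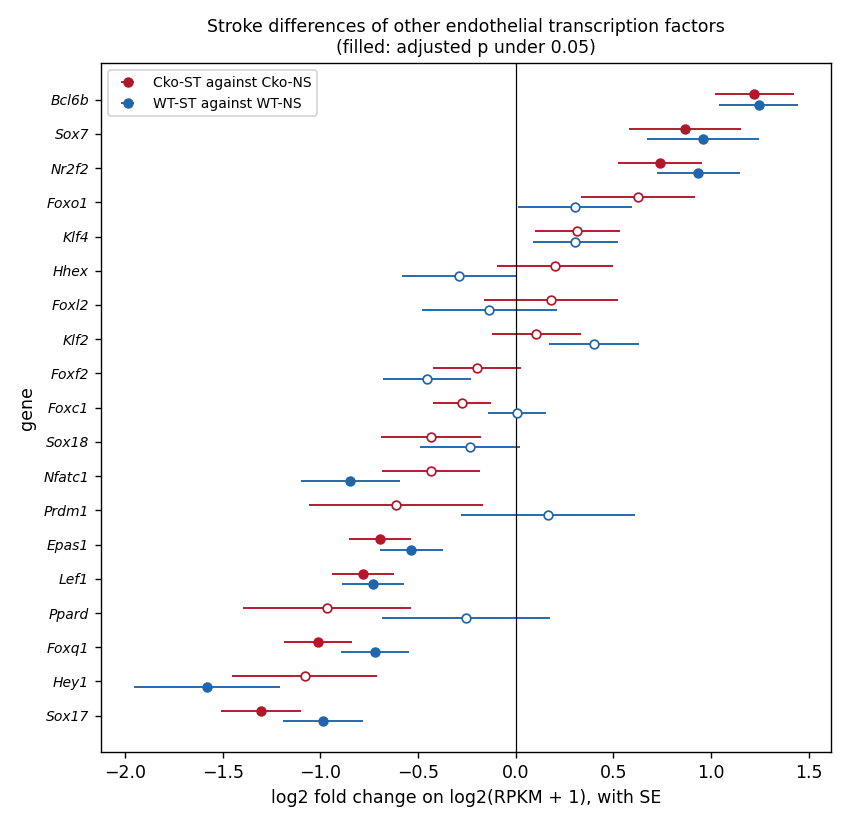
Log2 fold changes with SE of 19 other endothelial transcription factors for the stroke comparison in Cko mice and in WT mice, ordered by the value in Cko mice and filled where the adjusted p is under 0.05. Bcl6b, Sox7 and Nr2f2 are filled on the right and Sox17, Foxq1, Lef1 and Epas1 on the left in both genotypes.

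Genes with known ETS-bound enhancers, which an ETS factor can drive, split in direction. Of 18 tested, 3 rose and 3 fell in Cko-ST against Cko-NS, and 5 rose and 1 fell in WT-ST against WT-NS, beside 6.44% of all genes that rose and 8.71% that fell in Cko mice and 8.46% and 4.84% in WT mice. Their median log2 fold change was -0.20 in Cko mice and 0.41 in WT mice, beside -0.14 and 0.01 over all genes. The fall in WT mice was that of Tek (adjusted p = 0.0469), lost without any of 7 of the 8 libraries (adjusted p up to 0.119), with WT-NS 3 as the exception. Several of the 18 are also endothelial markers, whose sum was lower in WT-NS than in any other stroke-experiment group, as given above. Ecscr, an endothelial surface protein of chemotaxis, averaged 313 ± 88.6 RPKM in Cko-ST and 85.0 ± 28.8 in Cko-NS (log2 fold change 1.89 ± 0.25, adjusted p = 8.14e-05), and 249 ± 41.5 RPKM in WT-ST and 34.9 ± 9.37 in WT-NS (2.82 ± 0.25, adjusted p = 1.34e-06). Cdh5, the VE-cadherin of endothelial junctions, averaged 494 ± 97.3 RPKM in Cko-ST and 291 ± 39.3 in Cko-NS (adjusted p = 0.00404), and 402 ± 48.4 RPKM in WT-ST and 243 ± 23.1 in WT-NS (adjusted p = 0.00532; 0.0523 with quantile normalization). Emcn, a sialomucin of veins and capillaries, rose in both as well, with adjusted p of 0.00166 in Cko mice and 0.00529 in WT mice. Nos3, the endothelial nitric oxide synthase, rose in WT mice, with 32.5 ± 12.2 RPKM in WT-ST and 10.4 ± 3.67 in WT-NS (adjusted p = 0.00144). Tek, the angiopoietin receptor, fell in Cko mice, with 79.6 ± 10.4 RPKM in Cko-ST and 141 ± 29.2 in Cko-NS (adjusted p = 0.00212).

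Between the non-stroke hemispheres 3 of these 18 genes rose in Cko-NS against WT-NS and 0 fell, where 0.224% of all genes rose and 0.0915% fell. Their median log2 fold change was 0.69, beside 0.11 over all genes. The genes that rose were Robo4, a guidance receptor of endothelium (159 ± 23.7 RPKM in Cko-NS and 71.4 ± 18.4 in WT-NS, adjusted p = 0.0317), Nos3 (28.4 ± 6.93 RPKM in Cko-NS and 10.4 ± 3.67 in WT-NS, adjusted p = 0.046) and Ecscr (85.0 ± 28.8 RPKM in Cko-NS and 34.9 ± 9.37 in WT-NS, adjusted p = 0.046). The endothelial markers summed to 1581 to 1762 RPKM in Cko-NS and 1142 to 1386 in WT-NS, and the part of this in the rises was not tested. All 3 calls were lost with median-of-ratios scaling (adjusted p of 0.0628, 0.0779 and 0.0616) and without WT-NS 1, WT-NS 4, Cko-NS 1 or Cko-NS 2 (adjusted p up to 0.147), and the count fell to 0 in such fits. Robo4 and Nos3 were also lost without Cko-NS 3, Nos3 and Ecscr without Cko-NS 4, and Ecscr without WT-NS 3. Of 9 genes of endothelial fatty acid uptake, the process that Tcf15 drives in mouse heart, 4 were tested, of which 0 rose and 1 fell in Cko mice and 0 passed in WT mice. The shares of all genes were 6.44% that rose and 8.71% that fell in Cko mice, and 13.3% that passed in WT mice. Fabp4, a fatty acid binding protein, fell in Cko mice, with 12.5 ± 6.26 RPKM in Cko-ST and 48.9 ± 31.3 in Cko-NS (log2 fold change -1.82 ± 0.45, adjusted p = 0.00995, held in all 17 alternatives), and had 14.4 ± 7.99 RPKM in WT-ST and 30.2 ± 11.8 in WT-NS (adjusted p = 0.114). Fabp5, another of this family, had log2 fold changes of the opposite sign, 1.25 ± 0.71 in Cko mice (adjusted p = 0.253) and 1.75 ± 0.71 in WT mice (adjusted p = 0.114). Cd36, a fatty acid transporter, had -0.999 ± 0.55 in Cko mice and -0.51 ± 0.55 in WT mice, and Lpl, lipoprotein lipase, had -0.71 ± 0.77 and -1.18 ± 0.77 (adjusted p of 0.237, 0.61, 0.576 and 0.35).

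Members were also compared with each other over the 16 libraries, as a description in which points share genotype, hemisphere and depth. Gata2 and Tcf15 had a Pearson r of 0.78, and 0.57 once group means were removed. Ets1 ran against Tcf15 (r of -0.72) and Lmo2 (-0.67), values that became 0.14 and -0.07 without group means. Erg and Tal1 had r of -0.67, and -0.71 without group means. The neighbours Fli1 and Ets1 had r of 0.11, and Erg and Ets2 -0.29. The genes whose pattern was most like that of a member were Ywhaz, Rpl39 and Cald1 for Ets1 (r of 0.961, 0.946 and 0.935), Kcp, Notum and Slc16a4 for Lmo2 (0.953, 0.94 and 0.94), Cyp2d22, Acer2 and Rgcc for Gata2 (0.895, 0.894 and 0.891) and Pdlim2, Pik3ip1 and Tns1 for Tcf15 (0.886, 0.87 and 0.865), each over 16 libraries. Csgalnact1 was most like Mef2c (0.909), Vegfc most like Erg (0.84), Tmem168 most like Tal1 (0.824), Leo1 most like Ets2 (0.796) and Arfgef1 most like Fli1 (0.771). These are the highest r of a search over all genes tested, with predicted genes skipped. Group means were not removed for them, so they hold the differences between groups too.

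The second experiment asks whether stabilised beta-catenin in endothelium, without stroke, goes with other levels of the same factors. No member passed the test among 3 Bcat and 2 WT libraries, where 0% of the 11252 genes tested passed by limma and 590 had an unadjusted p under 0.05. Total RNA and another library kit were used here, and levels are not set against those of the stroke experiment. By mean level per gene length over the 5 libraries the order was Lmo2 (103 RPKM), Erg (99.97), Fli1 (64.5), Gata2 (62.5), Ets1 (53.4), Ets2 (27.8), Mef2c (24.0), Tal1 (7.07) and Tcf15 (1.36). Neighbours did not overlap between Erg and Fli1, Ets1 and Ets2, and Mef2c and Tal1, and overlapped in the other 5 places.

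Gata2 was the member whose groups did not overlap, as 20.4% of all genes did (8.66% higher and 11.7% lower). It had 64.6, 57.1 and 94.1 RPKM in Bcat, against 54.2 and 42.3 RPKM in WT, with a log2 fold change of 0.54 ± 0.29 (95% interval -0.11 to 1.20, adjusted p = 0.961). Lmo2 had 142, 147 and 71.3 RPKM in Bcat, against 68.4 and 88.9 RPKM in WT (log2 fold change 0.54 ± 0.34, adjusted p = 0.966). Of its Bcat libraries 2 lay above both WT libraries and the third between them. Erg had 126, 78.1 and 113 RPKM in Bcat, against 85.7 and 96.7 RPKM in WT, so that Bcat libraries lay on both sides of WT. Fli1 had 69.2, 71.1 and 57.6 RPKM in Bcat, against 61.0 and 63.9 RPKM in WT (log2 fold change 0.07, 95% interval -0.47 to 0.61).

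Tcf15 was listed at 0.235, 0 and 0 RPKM in Bcat, against 6.49 and 0.0664 RPKM in WT. A single WT library thus set its mean, and the difference of -1.40 ± 0.92 (adjusted p = 0.966) rests on that library, without which Tcf15 did not pass the filter of 1 RPKM. Without WT 2 it was -2.80. Ets1 (56.5 ± 17.0 RPKM in Bcat, n = 3, and 48.8 ± 12.4 in WT, n = 2), Ets2 (27.0 ± 8.12 RPKM in Bcat and 29.1 ± 11.4 in WT), Tal1 (6.79 ± 1.90 RPKM in Bcat and 7.48 ± 3.92 in WT) and Mef2c (24.0 ± 9.70 RPKM in Bcat and 24.0 ± 0.511 in WT) overlapped between the groups (SD). Of the lists, 0 genes passed in any. The 95% intervals of the 9 members reached from -3.46 for Tcf15 to 1.31 for Lmo2, so this comparison leaves wide bounds on most members.

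**Figure D5:**
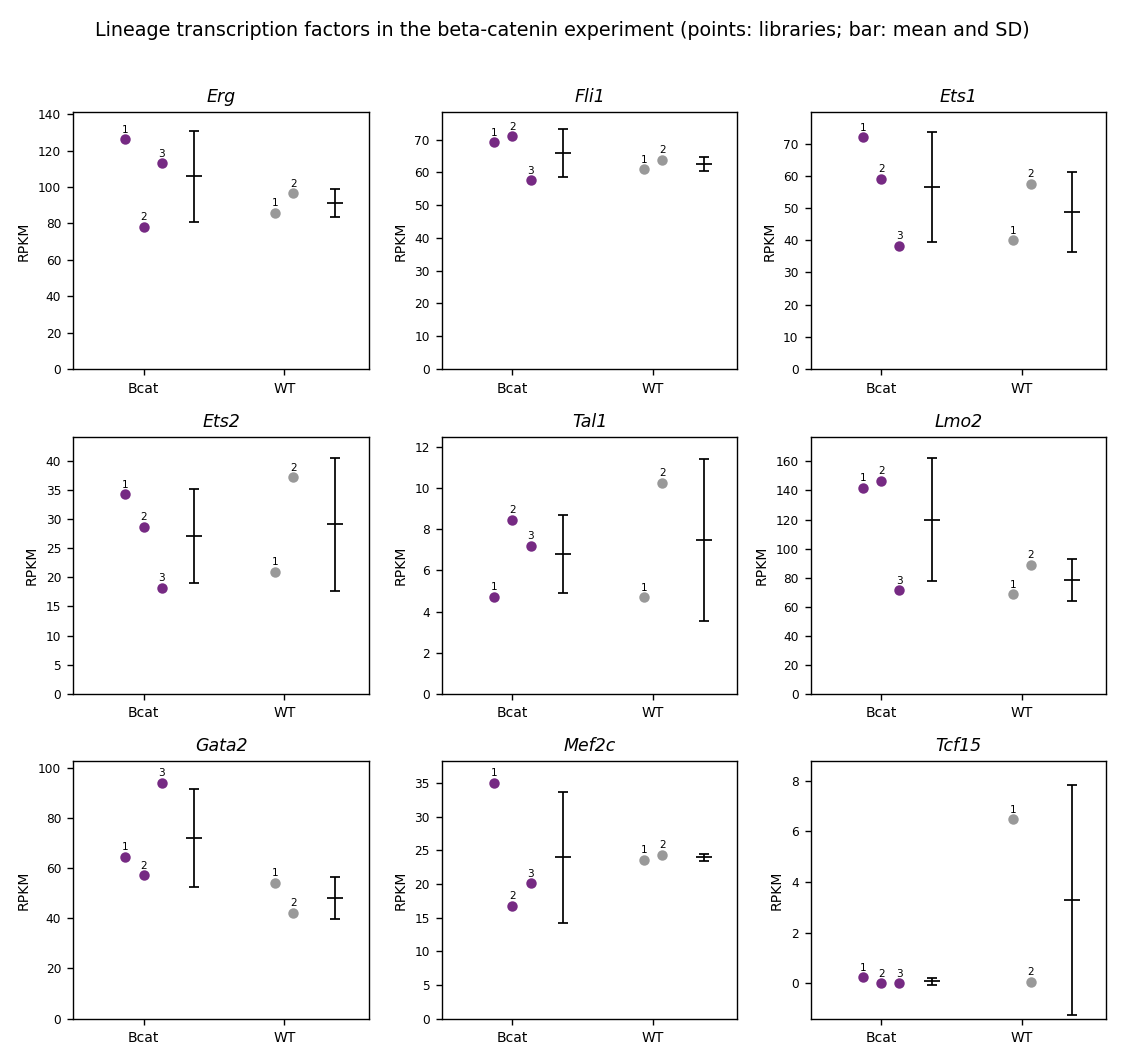
RPKM of the 9 transcription factors in each library of the beta-catenin experiment (points, with replicate number), with mean and SD of the 3 Bcat and 2 WT libraries as bars. Gata2 is the panel in which the Bcat libraries (57.1 to 94.1 RPKM) all lie above the WT libraries (42.3 and 54.2 RPKM), and in the Tcf15 panel only WT 1 stands above 1 RPKM.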

How the data were processed

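RNA was sequenced from sorted brain endothelial cells in 21 libraries of 6 groups, and groups were taken from the sample titles. The authors deposited RPKM values, 1 column per library, and edgeR and mm10 are named per the submitters' processing notes; the aligner and gene lengths: not given in the sources used here. Per the labels' protocols, the stroke libraries were amplified from the 3' end of polyadenylated RNA and the other 5 were made from total RNA. Of 24260 rows, 54 with names that occur more than once (23 names) were dropped, and 8 columns that match no sample were not used. Depth was estimated from the spacing of low values. The read numbers of Tcf15 were chosen so that every stroke library lay within 0.25 of a whole number, which is no check of the depth.

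From these values log2(RPKM + 1) was tested with limma 3.58.1 in R 4.3.3 (eBayes with a trend, two-sided, Benjamini-Hochberg over all genes with a mean of at least 1 RPKM, threshold 0.05), in a fit of 4 group means for 16 libraries and of 2 for 5. The low RPKM of a gene makes this scale understate its fold change. The scripts were tested on simulated data. Deviations of same-numbered libraries correlated across genes with r of 0.1005, 0.1344, 0.2135 and 0.1052 in the Cko groups, all above 0.1. Libraries of different genotype and number also passed 0.1, with 0.1679 for Cko-ST 3 and WT-ST 2 and 0.1036 for Cko-NS 3 and WT-NS 2. This check thus cannot settle the pairing. A fit with the number as a block is given as an alternative, in which WT-ST and WT-NS libraries were blocked by number too. Xist and 4 Y-linked genes were not tested. Named genes were all members, up to 4 genes of each list past the threshold (otherwise up to 2 with the highest mean, of which not all are reported here) and the 3 genes most correlated with each member. Some other list genes are given besides. The members and lists were chosen with earlier results of these data known. One listed gene is not reported here. Alternatives were other pseudocounts, filters, scalings, fits and left-out libraries.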

Additional observations from a re-analysis of the deposited data

Results flagged for a closer look

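Each member was examined in the 4 stroke-experiment groups of 4 libraries, 36 groups in all, for a library whose gap to its nearest neighbour takes up more of the group's range than Dixon's 95% critical value. This happened in 2 of the 36, and chance gives about 1 in 20. Lmo2 in Cko-ST 2 was 119.093 RPKM (0.873 of the range), below the other 3 Cko-ST libraries at 133 to 135 RPKM, and this library lies on the side of the fall in Cko-ST. Mef2c in WT-ST 1 was 65.9682 RPKM (0.841 of the range), above the other 3 WT-ST libraries at 45.2 to 48.5 RPKM and among the WT-NS libraries.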

How the results depend on the processing

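Over 934 alternatives of 54 member results, 886 kept direction and side of the threshold, 6 lost a call (Lmo2 in WT-ST against WT-NS), 4 gained one (Gata2 in Cko-ST against Cko-NS) and 38 changed sign, all among members that had not passed. Of 39 calls of list genes, 22 held in every alternative and 0 changed sign. The number of members called in WT-ST against WT-NS was 2, 1 without a trend, and 1 to 2 without 1 library. Over all genes, Cko-NS against WT-NS had 31 calls, 19 with no filter, 84 at 5 RPKM or more, 12 without a trend, 2 with the compared groups alone, and 1 to 41 without 1 library; Cko-ST against WT-ST had 0, and 0 to 8 without 1 library (8 without WT-ST 3, 3 without Cko-ST 3). Signs turned with median-of-ratios scaling and quantile normalization for Ets2 in WT-ST against WT-NS (-0.023 and -0.182), Tal1 in Cko-ST against Cko-NS (0.011 and 0.068) and Tal1 in Cko-NS against WT-NS (-0.091 and -0.142). They also turned without Cko-NS 4 and Cko-ST 3 for Gata2 in Cko-ST against WT-ST (-0.259). Mef2c in Bcat against WT is counted with median-of-ratios scaling, although its value there rounds to 0 and is hardly a change of direction. With the replicate block signs turned for Ets2 (0.16) and Mef2c (0.018) in Bcat against WT. In the Cko stroke comparison Gata2 was the member whose call changed with the block. Same-numbered WT-ST and WT-NS libraries had r of 0.0986, 0.13, 0.0721 and 0.0117 for numbers 1 to 4, not all above 0.1. Whether these numbers pair samples is not settled. Without 1 library each, log2 fold changes ran from -0.163 to 0.078 (Fli1) and -0.114 to 0.091 (Ets2) in WT-ST against WT-NS, -0.359 to 0.089 (Tal1) in Cko-ST against Cko-NS, -0.155 to 0.057 (Fli1) and -0.17 to 0.277 (Tal1) in Cko-NS against WT-NS, -0.259 to 0.408 (Gata2), -0.139 to 0.039 (Mef2c) and -0.397 to 0.099 (Tcf15) in Cko-ST against WT-ST, -0.13 to 0.161 (Erg) in the interaction, and -0.074 to 0.44 (Ets1), -0.488 to 0.308 (Ets2), -0.561 to 0.419 (Tal1) and -0.368 to 0.141 (Mef2c) in Bcat against WT. The cause was not tested. A fit without a WT library of the second experiment leaves 1, assumed to vary like Bcat. Depth limits Tcf15, at 6 to 260 reads per library, and 5 libraries limit the second experiment.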
